A study of Danio rerio with 12 samples.

Results

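Brain RNA from 12 zebrafish was compared for genes whose level in fish homozygous for a *psen2* mutation lay between wild type and heterozygous fish. Of the 32057 genes in the count table, 17082 passed the filters below, and 96 of them (0.562%) had this order without overlap between the genotypes. The members were chosen by their values in these same fish: log2(CPM + 0.5), where CPM is the count scaled to a library of 1000000 counts outside Chr MT (the mitochondrial genome), had to have ranges that did not overlap between the 3 genotypes, with Hom in the middle and the Het and WT means at least 0.3 apart. A gene needed a CPM above 1.5 in at least 4 fish and an exonic length of at least 300 bp. Of the 96 members, 32 were higher in Het and 64 were lower. The order of the levels, the separation of the genotypes and the size of the Het minus WT difference are therefore descriptions of the choice, and no test is attached to them. Under the same rule 12 genes (0.0702%) had Het between WT and Hom, and 1 gene (0.00585%) had WT between the mutant genotypes.

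WT fish carried no mutant allele, Het fish carried the S4Ter allele of *psen2* on one chromosome, and Hom fish carried it on both. S4Ter is a small frameshift deletion that places a stop codon a few codons after the nominal start codon. The study's authors concluded that it is not a null allele. They held that shortened Psen2 proteins are probably made from later start codons. All 12 fish were Tübingen females aged 6 months from a single family of heterozygous parents, and 4 entire brains were sequenced per genotype, with 1 library per fish. All mutant fish thus carried the same single allele on a family background shared with WT, and the 4 fish of a genotype were siblings. The protocol text of the labels speaks of pooled larvae, whereas the tissue label and the study's methods give entire adult brains. The 11 of 21 listed neuron markers that matched a gene had a summed level of 3692 to 4480 CPM in the 12 fish. With no larval sample beside it, this level cannot tell larvae and adult brain apart.

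Presenilin 2 is a membrane protein that can form the catalytic core of the γ-secretase complex, which cuts the amyloid precursor protein and Notch receptors within the membrane. Presenilins also act in calcium handling and in the acidification of lysosomes. In a simple response to the dose of an allele the heterozygote lies between both homozygotes, whereas in the genes described here the homozygous mutant took the middle place.

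Totals were 11878943 to 17026801 counts per fish, so that 3 counts amounted to 0.251 to 0.340 CPM, and the median member had a mean level of 39.2 CPM. Total *psen2* counts, which add both alleles and do not read the deletion, lay at 19.3 to 25.1 CPM in WT, 18.5 to 23.5 in Hom and 18.4 to 23.6 in Het, and they do not check the genotypes. Chr MT took 25.2 to 32.5% of all counts in WT, 37.3 to 41.5% in Hom and 37.3 to 42.0% in Het. Genes under 500 bp took 3.36 to 10.1% of the other counts in WT, 8.42 to 11.4% in Hom and 9.12 to 22.1% in Het. Het fish 84 stood apart with the 22.1%, with a median deviation of all genes of −0.25 on the log2 scale and with a TMM factor (a scaling factor for library composition) of 0.846, against 0.993 to 1.03 in the other 11 fish. The 4 of 11 listed radial glia markers that matched a gene summed to 339 to 467 CPM in WT, 471 to 871 in Hom and 576 to 988 in Het, none of them being at 0. The neuron markers summed to 4268 to 4480 CPM in WT, 3965 to 4237 in Hom and 3692 to 4386 in Het. For the other marker sets (oligodendrocytes, leukocytes, vessels, blood, pituitary and eye, meninges and muscle) the WT range overlapped both mutant ranges. The labels number the libraries Het first, then Hom, then WT, which is the order of the levels of the members from Het to WT, so a step that followed this numbering cannot be told apart from the genotype. The study's authors reported much and variable ribosomal RNA in these libraries, presumably from incomplete depletion. They found a correlation of differential expression with it that they could not explain, and so questioned their ribosome result. The share of ribosomal RNA per fish was not read here. The part of these measures in the values of the members was not tested. In bulk brain RNA, fewer cells of a type and less RNA per cell cannot be told apart either.

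**Figure D1:**
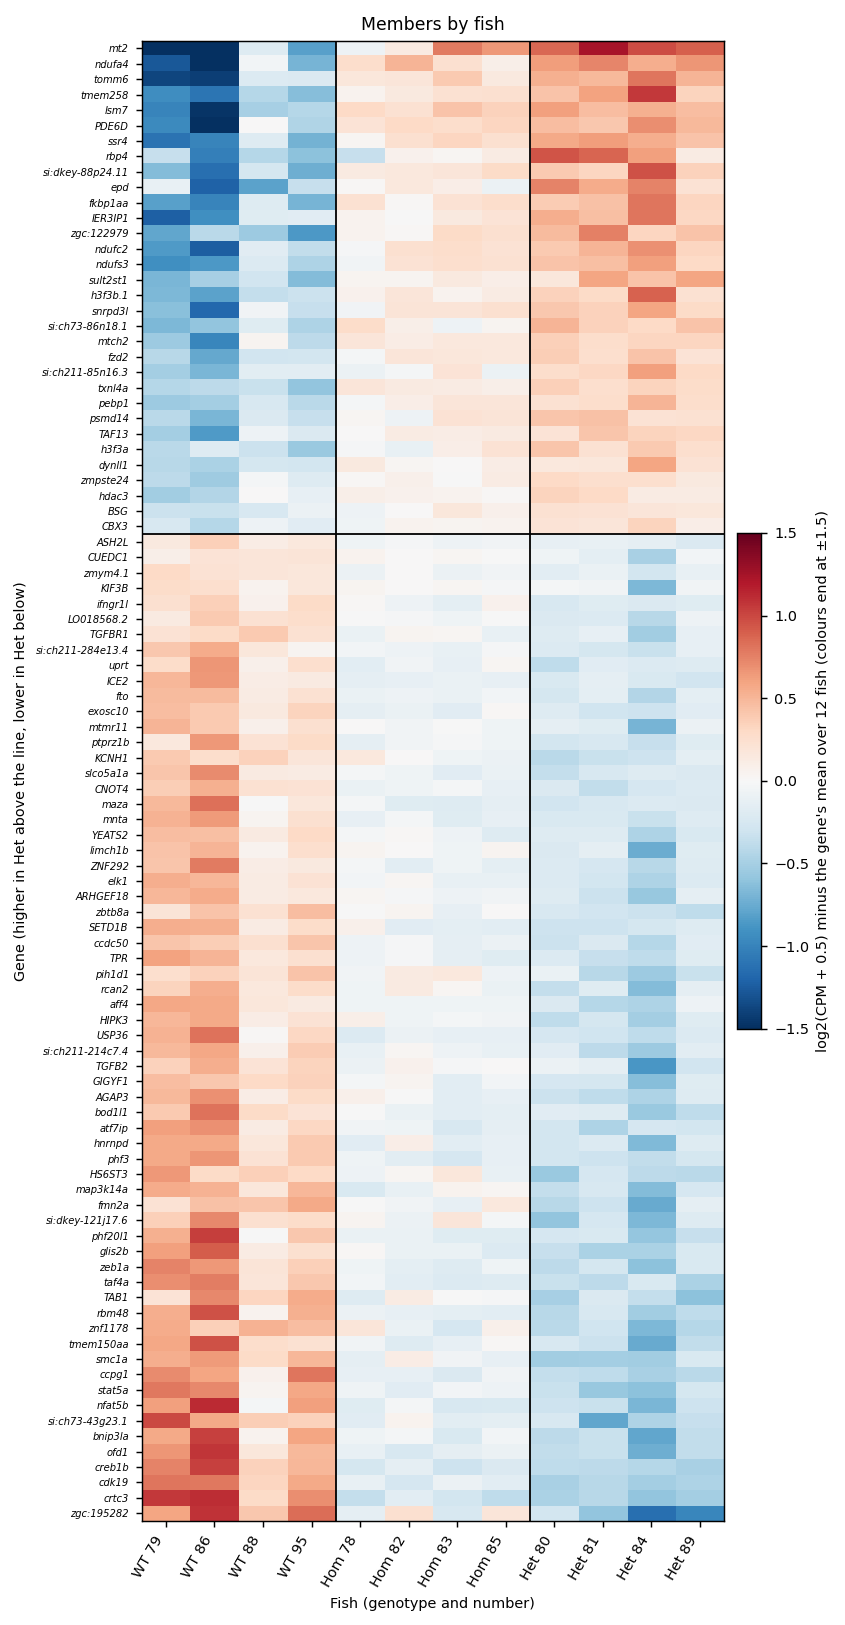
Level of each of the 96 members (rows) in each of the 12 fish (columns), as log2(CPM + 0.5) minus the gene's mean over the fish, with red above and blue below the mean and colours ending at ±1.5. The 32 members above the horizontal line were higher in Het and the 64 below it lower. The Hom columns are pale, and WT 86 and Het 84 have the deepest colours.

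Within a genotype the median SD of the members on the log2 scale was 0.23 in WT, 0.08 in Hom and 0.13 in Het, against 0.24, 0.18 and 0.25 over all genes that passed the filters. The rule favours genes whose fish of one genotype lie close together, most of all in Hom, which had to lie between the other ranges, so nothing is read from the small spread of the mutants. As one value per fish, the median deviation of the 64 lower members was subtracted from that of the 32 higher members. It was −1.42 in WT 86, −1.13 in WT 79, −0.70 in WT 95 and −0.37 in WT 88. The Hom fish had 0.10 in Hom 78, 0.17 in Hom 82, 0.24 in Hom 85 and 0.29 in Hom 83. The Het fish had 0.51 in Het 89, 0.67 in Het 80, 0.68 in Het 81 and 1.02 in Het 84. The WT fish nearest to the mutants was WT 88 in 69 of the 96 members, and the WT fish farthest from them was WT 86 in 61. Among the Het fish, Het 84 was the farthest from WT in 61 members and Het 89 the nearest in 46. WT 88 and WT 95, nearest to the mutants, also had the larger WT shares of Chr MT counts, 31.7% and 32.5%, against 25.2% in WT 86 and 25.6% in WT 79. In the mutants these shares did not run in the order of the value per fish. They were 39.5% in Hom 78, 37.3% in Hom 82, 38.3% in Hom 85 and 41.5% in Hom 83. In Het 89, Het 80, Het 81 and Het 84 they were 38.6%, 38.6%, 42.0% and 37.3%. WT 88 had the largest WT share of counts on genes under 500 bp (10.1%), and WT 86 the smallest (3.36%).

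**Figure D2:**
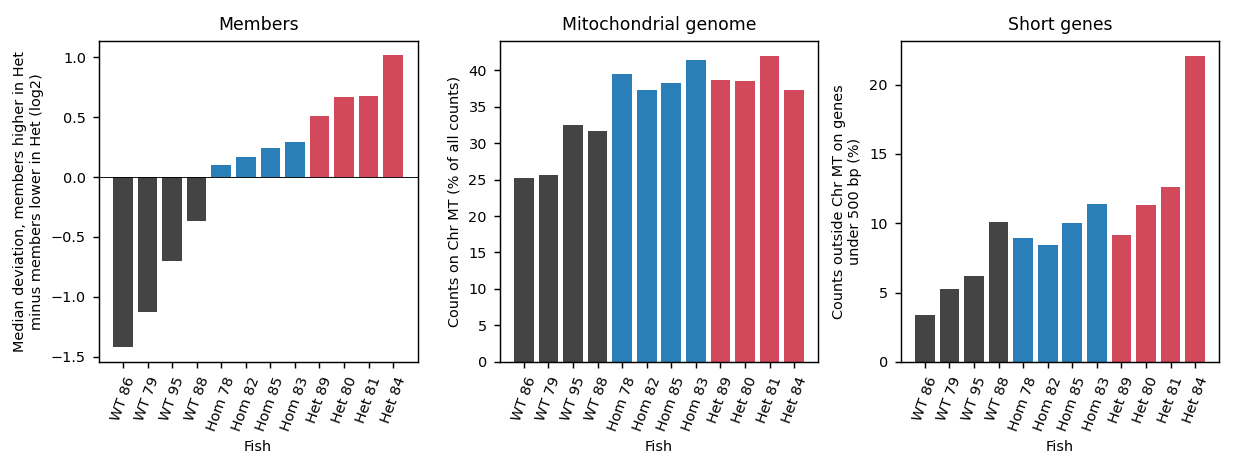
For each fish, ordered from the WT-like to the Het-like end, the left panel shows the median deviation of the higher members minus that of the lower members (log2), the middle panel the share of all counts on Chr MT and the right panel the share of other counts on genes under 500 bp (grey WT, blue Hom, red Het). The left panel runs from −1.42 in WT 86 to 1.02 in Het 84, and the right panel has its highest bar, 22.1%, in Het 84.

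The median of the 32 higher members was 1.97-fold more in Het than in WT, with a range of 1.35 to 5.14. For the 64 lower members, WT exceeded Het by a median of 1.61-fold, with a range of 1.26 to 2.78. A difference of more than 2-fold was found in 22 members, 15 higher and 7 lower. These folds are differences between means of log2(CPM + 0.5) turned back into ratios, and the added 0.5 understates the change of genes near 1 CPM. Over all 17082 genes the median Het minus WT difference was −0.05 and the median Hom minus WT difference was 0.05 on the log2 scale.

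The largest difference was that of *mt2*, which encodes metallothionein 2, a small protein that binds zinc and copper (chromosome 18, 17534627 to 17535979 of GRCz11, the genome build of the deposited table). Its CPM was 12.6, 10.3, 48.1 and 31.2 in WT fish 79, 86, 88 and 95. It was 52.1, 60.6, 94.98 and 86.9 in Hom fish 78, 82, 83 and 85, and 100.3, 131, 109.6 and 103 in Het fish 80, 81, 84 and 89. Per-fish values are given in these orders of fish from here on. WT 88 was close to the lowest Hom fish, and the Het fish stayed near one another. The mean was 5.14-fold higher in Het than in WT and 3.33-fold higher in Hom than in WT.

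Genes for mitochondrial proteins stood among the higher members, with those of the respiratory chain first. *ndufa4* (chromosome 12, 9880493 to 9884326), named as a subunit of complex I and in mammals found with cytochrome c oxidase, had 70.9, 54.5, 167 and 105 CPM in WT. It had 207, 245, 203 and 182 CPM in Hom and 264, 285, 251 and 271 CPM in Het. Its lowest Het fish was only slightly above the highest Hom fish, and the step from WT to Hom was the larger one, with 2.28-fold from WT to Hom and 2.93-fold from WT to Het. *ndufc2*, an accessory subunit of complex I, had 12.9, 9.80, 21.1 and 18.2 CPM in WT, 23.4, 28.0, 28.5 and 27.7 in Hom and 31.2, 33.9, 38.5 and 29.8 in Het. *ndufs3*, a core subunit of complex I, had 13.4, 13.9, 22.3 and 18.6 CPM in WT, 24.7, 30.1, 30.7 and 30.3 in Hom and 34.8, 35.2, 39.7 and 31.6 in Het. In both genes Hom 78 was the lowest Hom fish and WT 88 the highest WT fish.

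Proteins of the outer mitochondrial membrane were the next. *tomm6*, a small subunit of the pore that takes proteins into mitochondria, had 4.41, 4.27, 10.6 and 10.5 CPM in WT, 13.8, 13.9, 16.2 and 13.6 in Hom and 17.9, 17.3, 21.7 and 17.7 in Het. This was a 2.61-fold difference between Het and WT, with a wide step between the highest WT and the lowest Hom fish. *mtch2*, which helps to insert proteins into the outer membrane, lay 72.5 kb from *ndufs3* on chromosome 7. It had 36.7, 27.1, 55.2 and 40.7 CPM in WT, 60.9, 58.2, 59.8 and 59.9 in Hom and 69.1, 64.8, 67.5 and 67.2 in Het, so that the 8 mutant fish barely varied within their genotype. The mitophagy receptor *bnip3la*, which marks mitochondria for removal, had the opposite sign. Its CPM was 105, 143, 72.7 and 106 in WT, 67.0, 69.1, 60.03 and 68.3 in Hom and 53.6, 55.8, 40.6 and 54.3 in Het, which is 2.04-fold less in Het than in WT.

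The full list of nuclear-encoded oxidative phosphorylation genes held 104 genes that passed the filters. *ndufa4*, *ndufc2* and *ndufs3* were its 3 members, all higher in Het, beside 0.562% of all genes that were members. The median Het minus WT difference of the list was 0.68 on the log2(CPM + 0.5) scale, against −0.05 for all genes. In the edgeR quasi-likelihood fit of the 3 genotypes, 76 of its 105 tested genes were higher in Het than in WT at an FDR under 0.05, none was lower and 29 were not called. Among all 17149 tested genes, 14.1% were called higher and 13.8% lower in Het. In Hom against WT 23 of the 105 were higher and none lower, beside 8.47% higher and 10.1% lower among all genes. On the cytosolic ribosome list the calls in Het were split the same way, with 64 of 91 genes higher and 1 lower. None of its genes was a member. With 0.562% of all genes being members, nothing is read from this in a list of 91 genes. Both lists hold short genes. Their median exonic lengths were 964 bp for oxidative phosphorylation and 1315 bp for the ribosome, against 2592 bp for all genes. The part of length, or of the ribosomal RNA left in the libraries, in these counts was not tested.

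**Figure D3:**
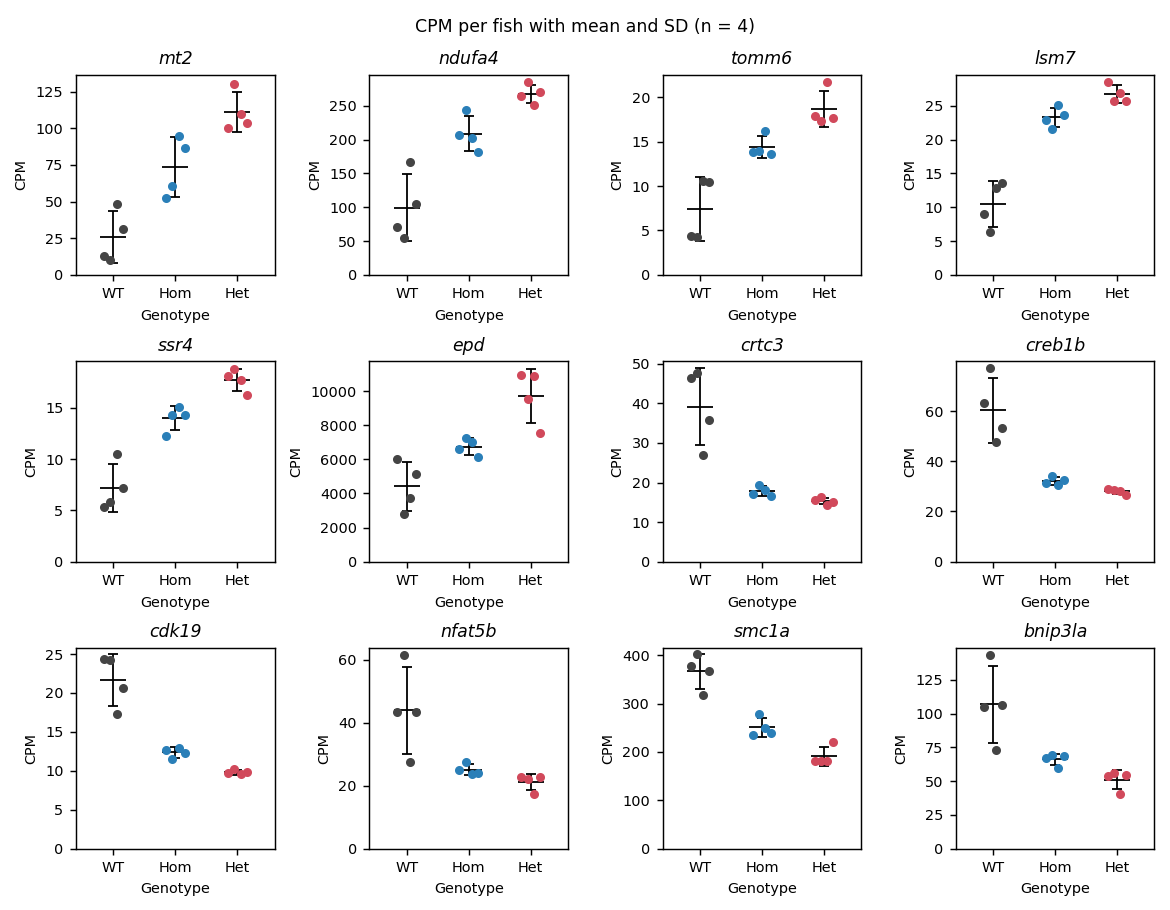
CPM of 12 members in each fish (points), with the mean and SD of the 4 fish of each genotype. The 6 genes from *mt2* to *epd* run upward from WT over Hom to Het and the other 6 run downward, with the WT points of *mt2*, *ndufa4* and *nfat5b* the most spread.

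Proteins of the endoplasmic reticulum and the secretory route made up another part of the higher members. *tmem258*, a subunit of the complex that attaches sugar chains to new proteins, had 7.47, 6.62, 10.9 and 9.29 CPM in WT, 15.3, 16.4, 17.4 and 17.6 in Hom and 20.1, 22.7, 31.3 and 18.7 in Het. *ssr4*, a subunit of the translocon-associated complex, had 5.32, 5.78, 10.5 and 7.14 CPM in WT, 12.3, 14.3, 15.1 and 14.3 in Hom and 18.1, 18.8, 17.7 and 16.3 in Het. *ssr4* had the widest separation of the higher members, and its Het fish were even, with Het 84 not the highest. *IER3IP1*, an endoplasmic reticulum protein needed in mammals for secretion, had 4.53, 5.70, 9.81 and 9.88 CPM in WT, 11.6, 11.1, 12.4 and 13.02 in Hom and 16.6, 15.5, 19.9 and 13.96 in Het. The differences between Het and WT were 2.605-fold for *tmem258*, 2.45-fold for *ssr4* and 2.22-fold for *IER3IP1*. *zmpste24*, which trims prenylated proteins such as prelamin A, had a smaller difference of 1.44-fold.

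Secreted proteins and a membrane glycoprotein had the highest levels of the members. *epd* encodes ependymin, a glycoprotein of the cerebrospinal fluid of fish (chromosome 5, 37837245 to 37839310), and had 6014, 2810, 3734 and 5125 CPM in WT. It had 6605, 7268, 6990 and 6129 CPM in Hom and 10923, 9527, 10890 and 7546 in Het. *rbp4*, which encodes the carrier of retinol in the blood, had 272, 169.7, 258 and 227 CPM in WT, 273, 362, 354 and 376 in Hom and 666, 637, 531 and 378 in Het. Its ranges were barely apart on either side, WT 79 lying just under Hom 78 and Hom 85 just under Het 89. *BSG* (basigin), a membrane glycoprotein that accompanies lactate transporters, had 303, 301, 322 and 357 CPM in WT, 361, 380.1, 425 and 399.9 in Hom and 444, 439, 429 and 426 in Het. *epd* and *rbp4* were 2.27-fold and 2.36-fold higher in Het, and *BSG* 1.36-fold.

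Small RNA-processing proteins were also higher. *lsm7*, part of the ring that binds U6 RNA and of the ring that acts in mRNA decay, had 9.06, 6.37, 12.9 and 13.6 CPM in WT, 22.8, 21.6, 25.1 and 23.6 in Hom and 28.5, 25.7, 26.8 and 25.7 in Het. Of the members it had Hom nearest to Het. *snrpd3l*, a core protein of the spliceosomal particles, had 14.3, 9.55, 21.4 and 17.3 CPM in WT, 21.4, 25.5, 25.5 and 26.2 in Hom and 29.4, 28.4, 33.8 and 27.1 in Het, where WT 88 and Hom 78 nearly met. *txnl4a*, a spliceosome protein, was 1.68-fold higher in Het than in WT. Against this, *hnrnpd*, which binds AU-rich elements in mRNAs, had 323, 321, 244 and 285 CPM in WT, 193, 232, 194 and 199 in Hom and 178, 188, 137 and 189.6 in Het. *rbm48*, which acts in the splicing of minor introns in mammals, had 20.7, 27.8, 14.6 and 20.5 CPM in WT, 13.2, 12.9, 12.6 and 12.54 in Hom and 10.4, 11.8, 9.62 and 10.6 in Het. The span of *hnrnpd*, introns included, overlaps that of a neighbour on the same strand. Whether their exons overlap was not read, so its counts may be uncertain. The list of splicing and RNA-binding genes had 192 tested genes, of which 22 were called higher and 53 lower in Het against WT, and 6 higher and 43 lower in Hom against WT, beside the shares of all genes given above for both comparisons. *exosc10*, a nuclease of the RNA exosome, *fto*, which removes methyl groups from RNA, and *CNOT4*, a ubiquitin ligase linked to the deadenylation complex, were lower in Het by folds of 1.49, 1.49 and 1.52.

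Among the members with a role in chromatin, the variant histone genes were higher. *h3f3b.1* had 51.8, 47.3, 64.5 and 66.5 CPM in WT, 87.1, 94.3, 86.4 and 90.2 in Hom and 106, 101, 154 and 97.0 in Het. *h3f3a* had 36.7, 42.4, 38.9 and 33.0 CPM in WT, 48.0, 45.0, 52.0 and 56.8 in Hom and 65.1, 57.2, 63.8 and 58.0 in Het. Both encode histone H3.3. The study counted unique alignments only, so reads that match near-identical copies of the gene equally may be missing from both. *hdac3*, a histone deacetylase, had 20.8, 22.0, 30.2 and 27.6 CPM in WT, 32.2, 31.5, 31.3 and 30.4 in Hom and 38.0, 37.2, 32.9 and 32.7 in Het, and *CBX3*, a heterochromatin protein, was 1.35-fold higher in Het.

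Other chromatin members were lower. *SETD1B*, a histone H3 methyltransferase with an exonic length of 8180 bp, had 131, 130.1, 97.7 and 108 CPM in WT, 94.0, 79.7, 81.04 and 79.9 in Hom and 72.2, 71.9, 74.2 and 78.2 in Het. *smc1a*, a subunit of the cohesin ring that holds sister chromatids and shapes loops, had 378, 403, 318 and 368 CPM in WT, 236, 279, 250.4 and 239 in Hom and 181, 182, 181 and 221 in Het, so that 3 of the 4 Het fish were nearly equal. *smc1a* was 1.92-fold lower in Het than in WT. *ASH2L*, a partner subunit of *SETD1B*, *atf7ip*, a cofactor in histone methylation, and *YEATS2*, which reads acetylated histones, were 1.26-fold, 1.68-fold and 1.52-fold lower. *phf3*, *phf20l1* and *TPR*, the last a protein of the nuclear pore basket, were 1.70-fold, 1.79-fold and 1.57-fold lower. On the list of chromatin genes, 10 of 135 tested genes were called higher and 60 lower in Het against WT, and 5 higher and 54 lower in Hom against WT, beside 14.1% higher and 13.8% lower among all genes in Het and 8.47% and 10.1% in Hom. The median length of this list was 5052 bp.

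Transcription factors and their cofactors stood among the lower members. *crtc3*, a coactivator of CREB (chromosome 7, 50548074 to 50633285), had 46.3, 47.6, 26.8 and 35.8 CPM in WT, 16.97, 19.5, 18.01 and 16.7 in Hom and 15.5, 16.3, 14.4 and 15.2 in Het. *creb1b*, which encodes a factor CREB that answers to cyclic AMP (chromosome 9, 28263908 to 28275600), had 63.2, 77.2, 47.8 and 53.2 CPM in WT, 31.2, 34.3, 30.3 and 32.4 in Hom and 28.8, 28.5, 27.9 and 26.7 in Het. In both genes the mutant genotypes were close to one another and far below WT, with WT 88 the lowest WT fish. WT exceeded Het by 2.44-fold in *crtc3* and by 2.10-fold in *creb1b*, and Hom by 2.12-fold and 1.84-fold.

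*cdk19*, a kinase of the Mediator complex that links factors to RNA polymerase, had 24.3, 24.2, 17.3 and 20.6 CPM in WT, 12.7, 11.5, 12.97 and 12.2 in Hom and 9.68, 10.2, 9.52 and 9.85 in Het. Of the 96 members it had the widest separation. *nfat5b*, a factor of the response to salt stress, had 43.5, 61.4, 27.5 and 43.4 CPM in WT, 24.8, 27.5, 23.7 and 23.9 in Hom and 22.6, 22.2, 17.2 and 22.6 in Het. *stat5a*, which carries signals of cytokines and growth hormone to the nucleus, had 36.3, 34.6, 21.4 and 31.4 CPM in WT, 19.9, 18.5, 20.2 and 19.6 in Hom and 16.4, 13.9, 13.4 and 17.3 in Het. The means differed between WT and Het by 2.13-fold, 1.99-fold and 1.97-fold. In *nfat5b* WT 88 and Hom 82 almost touched. In *cdk19* the lowest Hom fish had 11.5 CPM and the highest Het fish 10.2 CPM, and the gene did not meet the rule under TMM scaling.

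Other factors of this kind covered a narrower range. *zeb1a*, a repressor of epithelial genes, and *glis2b*, a zinc finger factor, were 1.82-fold and 1.81-fold lower in Het than in WT. *elk1*, a target of MAP kinase, and *mnta*, a repressor of the MAX network, were 1.55-fold and 1.52-fold lower. *taf4a*, a subunit of the general factor TFIID, was 1.83-fold lower, whereas *TAF13*, a small subunit of the same factor, was 1.66-fold higher, with 11.9, 9.30, 16.2 and 14.7 CPM in WT, 17.2, 18.6, 18.4 and 18.8 in Hom and 19.9, 23.1, 21.8 and 21.4 in Het. The exonic length was 4421 bp for *taf4a* and 805 bp for *TAF13*. *aff4* and *ICE2*, of complexes that drive elongation of transcripts, were 1.58-fold and 1.49-fold lower. *maza*, *ZNF292*, *zbtb8a*, *zmym4.1* and *znf1178*, which carry zinc fingers, were lower by folds between 1.30 and 1.90.

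Signalling genes lay on both sides. *map3k14a*, which encodes the kinase NIK of the non-canonical NF-κB pathway, had 45.6, 44.4, 34.9 and 43.9 CPM in WT, 26.3, 28.6, 32.1 and 31.6 in Hom and 24.0, 26.1, 19.4 and 25.8 in Het. *TGFB2*, a ligand, its receptor subunit *TGFBR1* and *TAB1*, an adaptor of the kinase that acts downstream of such receptors, were 1.63-fold, 1.43-fold and 1.84-fold lower in Het than in WT. *HIPK3*, a nuclear kinase, *rcan2*, an inhibitor of calcineurin, and *ifngr1l*, a receptor of interferon gamma, were 1.60-fold, 1.58-fold and 1.36-fold lower. Higher in Het were *PDE6D*, which carries prenylated proteins between membranes, and *fkbp1aa*, a prolyl isomerase that binds calcium release channels in mammals. *PDE6D* had 5.21, 2.76, 10.6 and 7.53 CPM in WT, 12.2, 13.1, 12.8 and 13.3 in Hom and 14.7, 14.1, 17.4 and 14.97 in Het. *fkbp1aa* had 104, 91.3, 159 and 112 CPM in WT, 213, 185, 212 and 219 in Hom and 237, 248, 318 and 227 in Het. The differences were 2.47-fold and 2.23-fold, with WT 88 the highest WT fish in both. *fzd2*, a receptor of Wnt ligands, and *pebp1*, an inhibitor of RAF kinase, were 1.68-fold and 1.67-fold higher. In the list of kinase and cyclic AMP genes 34 of 290 tested genes were called higher and 57 lower in Het against WT, and 19 higher and 37 lower in Hom against WT, beside 14.1% and 13.8% of all genes in Het and 8.47% and 10.1% in Hom.

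Members placed with the cytoskeleton and cilia were lower, apart from *dynll1*. *ofd1*, a protein of centrioles and the base of cilia, had 29.9, 39.7, 21.1 and 26.3 CPM in WT, 17.3, 15.8, 16.9 and 17.5 in Hom and 14.4, 14.7, 11.0 and 14.4 in Het. *fmn2a*, a formin that builds actin filaments and with 9725 bp the longest member, had 40.3, 47.2, 46.6 and 51.8 CPM in WT, 34.4, 33.4, 31.7 and 38.6 in Hom and 25.8, 27.8, 20.4 and 31.6 in Het. *KIF3B*, a motor of transport in cilia, had 103, 102, 88.7 and 96.3 CPM in WT, 88.1, 85.7, 87.4 and 84.7 in Hom and 83.6, 82.5, 53.5 and 82.5 in Het, with Het 84 far below the other Het fish. The difference was 1.31-fold. *limch1b*, which activates non-muscle myosin, was 1.54-fold lower. *dynll1*, a light chain of dynein, was 1.56-fold higher. On the whole list of actin and microtubule genes, 26 of 194 tested genes were called higher and 29 lower in Het against WT. In Hom against WT 17 were higher and 11 lower. Among all genes 14.1% were called higher and 13.8% lower in Het, and 8.47% and 10.1% in Hom. The calls of the list in Het were thus split nearly evenly, and no direction of the list is set beside these members.

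Membrane proteins of neurons and glia and the remaining enzymes completed the lower side. *KCNH1*, a voltage-gated potassium channel, had 39.4, 36.2, 38.3 and 34.0 CPM in WT, 33.5, 30.1, 28.5 and 28.1 in Hom and 22.5, 23.6, 24.1 and 27.1 in Het. *slco5a1a*, a solute carrier, had 367, 447, 302 and 298 CPM in WT, 269, 262, 243 and 256 in Hom and 215, 232, 239 and 236 in Het. These were the 2 members on the list of ion channels and transporters, where more genes were called higher than lower. In Het against WT 99 of its 554 tested genes were higher and 47 lower. In Hom against WT 63 were higher and 34 lower, beside the shares of all genes given above. *ptprz1b*, a receptor phosphatase of glia, and *HS6ST3*, which adds sulfate to heparan sulfate, were 1.501-fold and 1.74-fold lower. The ubiquitin genes diverged: *psmd14*, a deubiquitinase of the proteasome lid, was 1.67-fold higher, and *USP36*, a deubiquitinase of the nucleolus, was 1.62-fold lower. *psmd14* had 20.7, 16.9, 23.8 and 21.6 CPM in WT, 28.2, 26.1, 32.1 and 31.6 in Hom and 37.1, 37.4, 32.1 and 32.3 in Het, so that Hom 83 and Het 84 almost met. On the list of proteasome and ubiquitin genes, 55 of 340 tested genes were called higher and 48 lower in Het against WT. In Hom against WT 28 were higher and 39 lower, beside the same shares of all genes. *ccpg1*, in mammals a receptor for the autophagy of the endoplasmic reticulum, had 32.5, 29.9, 20.7 and 34.6 CPM in WT, 18.1, 18.1, 16.9 and 18.9 in Hom and 15.2, 14.98, 13.9 and 14.8 in Het. One member is described as a binding partner of the amyloid precursor protein (*LO018568.2*), and it was 1.40-fold lower in Het. No member was on the list of γ-secretase and Notch genes. With 0.562% of all genes being members, nothing is read from this in a list of 20 genes. Of the 20 tested, 6 were called higher in Het against WT and none lower. In Hom against WT 2 were higher and none lower, beside the shares of all genes given above. The grouping by role was made after the values had been seen and carries no count of its own. *GIGYF1*, which acts in the repression of translation, was 1.64-fold lower, and *sult2st1*, a sulfotransferase, was 1.97-fold higher. The ranges of folds given above for each direction also cover the members not placed in a group, among them *zgc:122979* and *si:dkey-88p24.11*.

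*zgc:195282* had the largest difference of the lower members on the log2(CPM + 0.5) scale and the lowest level. It had 2.49, 3.69, 2.12 and 3.03 CPM in WT, 1.31, 1.84, 1.18 and 1.75 in Hom and 1.13, 0.810, 0.405 and 0.502 in Het. The lowest of these, in Het 84, was close to the level of 3 counts, and the fold of 2.78 on the log2(CPM + 0.5) scale depends on the added 0.5. With 2 added to the CPM its Het minus WT difference was −0.83, smaller than the −1.21 of *crtc3*, and with Chr MT in the total it was −1.44 against −1.49, so its first place among the lower members did not hold under these settings.

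**Figure D4:**
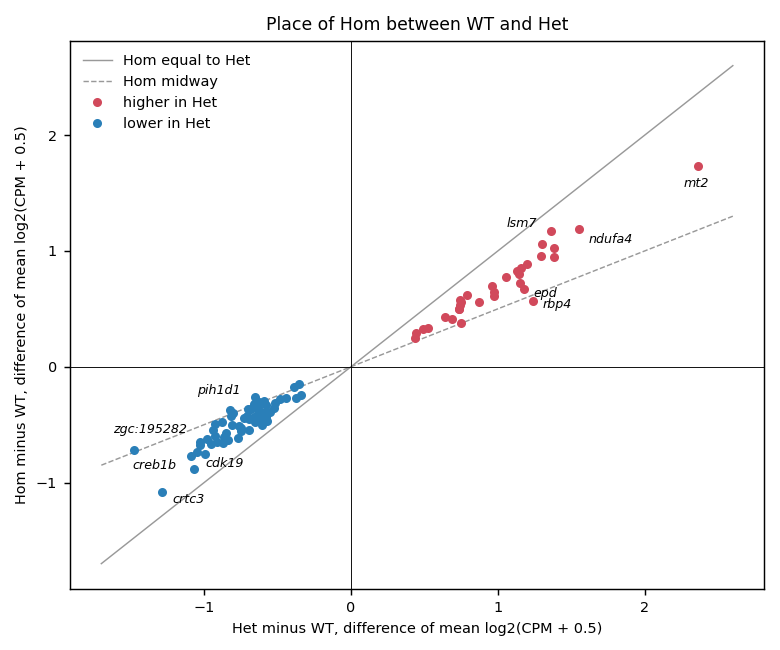
Hom minus WT difference against Het minus WT difference of mean log2(CPM + 0.5) for the 96 members (red higher, blue lower in Het), with lines where Hom equals Het (solid) and where Hom lies midway (dashed). Most points lie between the lines, and the median position of Hom is 0.68 of the way from WT to Het.

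The position of Hom between WT and Het was read from the same values that chose the members, and the demand for ranges that do not overlap, with the spread unequal between the genotypes, bears on it, so it is given as a description. This position, with 0 at the WT mean and 1 at the Het mean, had a median of 0.68 over the 96 members and a range of 0.40 to 0.86. It was over 0.5 in 86 members and under 0.5 in 10. Over all 17082 genes the median position was 0.77 (25th to 75th percentile 0.38 to 1.144). Many of these genes had Het and WT means less than 0.3 apart, where the position is unstable, and it ran from −261443 to 2281. Whether a place nearer to Het is particular to the members cannot be read from this. The 4 Hom fish taken singly gave medians of 0.63 (Hom 78), 0.65 (Hom 82), 0.71 (Hom 85) and 0.73 (Hom 83). The higher and the lower members gave like medians of 0.69 and 0.67. The gap between the WT and Hom ranges was wider than that between the Hom and Het ranges in 77 members. Over all 17082 genes the median gap was −0.21 for WT to Hom and −0.39 for Hom to Het, a negative gap being an overlap. A wider gap on the WT side is thus not read as particular to the members. Hom was nearest to Het in *lsm7* (0.86) and *crtc3* (0.84). It was nearest to WT in *pih1d1*, a cofactor in the assembly of protein complexes, at 0.40 and in *CUEDC1* at 0.42. In *CUEDC1* Het 84 lay at 5.01 on the log2(CPM + 0.5) scale and the other Het fish at 5.35 to 5.46, so its position leans on 1 fish. *pih1d1* had 8.83, 9.46, 8.46 and 10.1 CPM in WT, 7.07, 8.11, 8.25 and 6.90 in Hom and 6.79, 5.36, 4.86 and 5.73 in Het.

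The calls of the fit across all 17149 tested genes were based on the same fish that chose the members, so nothing is read from them. In Het against WT 95 of the 96 members were called at an FDR under 0.05 in edgeR, 32 higher and 63 lower, beside 14.1% and 13.8% of all genes. In Hom against WT 75 were called, 23 higher and 52 lower, beside 8.47% and 10.1%. This last count moved between 44 without WT 79 and 86 without Het 84. It was 49 without WT 86 or without Hom 83 and 48 without Hom 85. In Hom against Het no gene was called by the edgeR quasi-likelihood test (0%), among the members or elsewhere, and 31 members and 656 of all genes had an unadjusted p under 0.05. DESeq2 called 7 genes and the edgeR likelihood-ratio test 8 genes in Hom against Het, and none of these was a member. The separation of Hom from Het in the members thus rests on ranges that do not overlap and not on a test.

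Exonic length, which the rule did not use beyond its minimum of 300 bp, differed between the members higher and lower in Het. The median exonic length was 1060 bp for the higher members, 3616.5 bp for the lower members and 2592 bp for all genes that passed the filters. Of the 32 higher members, 23 were under 1500 bp, as were 19.4% of all genes. Of the 64 lower members, 11 were under 1500 bp and 47 were over 2000 bp, as were 65.0% of all genes. With all genes ranked by length into 4 equal parts, the shortest part (302 to 1686 bp) held 25 higher and 13 lower members, the second 5 and 11, the third 2 and 14, and the longest (4222 to 98586 bp) 0 and 26. The median Het minus WT difference of all genes in the same order was 0.08, −0.01, −0.08 and −0.15 on the log2 scale. Het 84, with the highest share of counts on genes under 500 bp, is one of the 4 Het fish behind these values. The lower members also had more exon entries in their gene models, with a median of 21 against 7 for the higher members and 14 for all genes. Such entries can hold the same stretch more than once, so they are not numbers of exons. Per kb of exon, the median level was 24.1 CPM for the higher members, 13.3 CPM for the lower members and 6.89 CPM for all genes. The demand for ranges that do not overlap favours genes with little counting error. Nothing is therefore read from the higher level of the members.

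**Figure D5:**
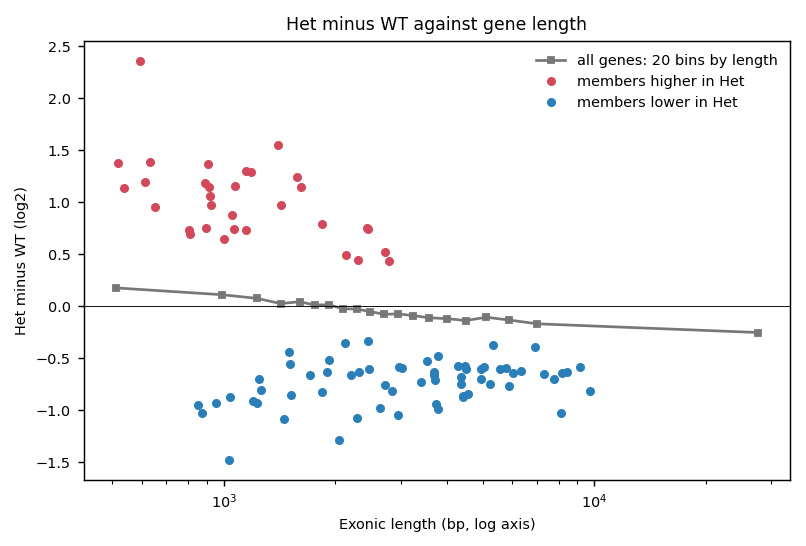
Het minus WT difference of mean log2(CPM + 0.5) against exonic length on a log axis for the 96 members (red higher, blue lower in Het), with the median deviation of all genes in 20 bins by length in grey. Of the red points 23 lie under 1500 bp and of the blue points 47 lie over 2000 bp, and the grey line declines with length.

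Membership depended on how the counts were scaled. With TMM scaling the rule gave 87 genes (47 higher, 40 lower), of which 56 were among the 96. With a correction for length, which subtracted in each fish the median deviation of genes of like length, it gave 83 genes (43 higher, 40 lower), of which 48 were among the 96. With CPM taken over all counts, Chr MT included, it gave 81 genes (14 higher, 67 lower), 43 of them among the 96, and this scaling moved the median Het minus WT difference of all genes to −0.25. All 32 higher and all 64 lower members kept their sign in the Het minus WT difference under TMM scaling, the length correction and the scaling over all counts. The rule asked for a difference of at least 0.3. The median of all genes moved only from −0.05 to 0.01 under the first 2 of these and to −0.25 under the third. The kept signs thus follow from the choice of members, and nothing is read from them. The length correction itself takes out nearly all of a scale factor of a fish. With and without TMM scaling it kept 48 members each, differing only in *smc1a* and *BSG*, so these are nearly 1 setting. Under TMM scaling, the length correction and both together, 40 members met the rule each time, 20 higher and 20 lower. These included *mt2*, *ndufa4*, *ndufc2*, *ndufs3*, *tomm6*, *mtch2*, *tmem258*, *ssr4*, *IER3IP1*, *lsm7*, *PDE6D*, *TAF13* and *h3f3b.1* on the higher side and *nfat5b*, *stat5a*, *ofd1*, *bnip3la*, *ccpg1*, *rbm48*, *pih1d1* and *zgc:195282* on the lower side. *crtc3*, *creb1b*, *rbp4*, *map3k14a*, *SETD1B*, *KIF3B*, *KCNH1*, *slco5a1a*, *USP36*, *hdac3*, *snrpd3l* and *ASH2L* met the rule under none of the 3. *epd* and *h3f3a* met it under TMM scaling alone, and *cdk19*, *hnrnpd* and *psmd14* under both forms of the length correction but not under TMM scaling. Leaving out 1 fish relaxes the demand on the ranges, and the number of genes rose most for Het 89. Without it 363 genes met the rule, against 260 without Hom 83, 181 without Hom 85, 176 without Het 84 and 96 without WT 86.

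The members lay on all 25 chromosomes. On chromosome 1, which carries *psen2*, there were 3, namely *zgc:195282*, *atf7ip* and *si:ch211-214c7.4*, at 32.2, 5.43 and 5.30 Mb from *psen2*. Less than 1 Mb apart were 12 neighbouring pairs of members. The spans of 9 members, from start to end with introns included, overlapped that of another gene on the same strand. Besides *hnrnpd* these were *HS6ST3*, *YEATS2*, *atf7ip*, *zbtb8a*, *rbm48*, *aff4*, *taf4a* and *TGFBR1*. Whether exons overlap was not read, and the part of this in their counts was not tested.

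At the limits of the rule, *ASH2L* and *CUEDC1* were just inside the 0.3 difference of means, at −0.34 and −0.35, and *CDC42*, at 0.23, was the one gene left out by it. The narrowest gap inside was that of *ifngr1l*, with 42.0, 45.6, 37.2 and 43.3 CPM in WT and 35.9, 33.6, 31.9 and 37.2 in Hom, where WT 88 and Hom 85 were equal to 3 digits. Just outside were *golga7* and *nansa*, whose Hom and Het ranges overlapped by less than 0.001 on the log2 scale.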

How the data were processed

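The authors trimmed reads with cutadapt 1.14, aligned them to GRCz11 with STAR 2.7.0d and counted them with featureCounts (Subread 1.5.2) against Ensembl gene models. The deposited values are whole-number counts per gene, without normalization. The other deposited column used, of a unit other than counts, is the exonic length that the authors' counting program wrote. Their later correction for GC content and length is not part of the deposited table, and GC content was not used here. The 3-count levels given cover counting error alone.

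All 96 members had a symbol, 64 from the study's supplementary table and 32 from a reference list that matched 28988 of the 32057 identifiers, in which capitals are human-style spellings of zebrafish genes.

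The model across all genes was a fit of the 3 genotypes with TMM scaling and the quasi-likelihood test in edgeR 4.0.16 (with limma 3.58.1 under R 4.3.3), adjusted by Benjamini-Hochberg over 17149 genes with CPM above 1.5 in at least 4 fish, and tested on simulated data. Other values were made with Python 3.11.15, pandas 2.3.3 and numpy 2.4.6. The members and the gene lists were chosen with earlier results of these data known. Members in a list, those with the largest difference, widest separation, highest CPM or extreme positions of Hom, and those at the limits of the rule were named by rule (45 members), and the naming of the rest followed a look at their values. The alternatives tried comprised DESeq2 1.42.0, the likelihood-ratio test, upper-quartile scaling, other filters and pseudocounts, the length correction in 20 bins and leaving out each fish. The length correction on TMM-scaled values and TMM scaling without Het 84 were chosen after seeing the data. The p-values measure the spread between siblings of 1 family.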

Additional observations from a re-analysis of the deposited data

Results flagged for a closer look

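In 14 of the 135 genotype groups of the 45 members named by rule, 1 fish lay far from the other 3 on the log2 scale. Chance alone flags about 5% of such groups, and the rule for members restricts the spread of the groups. Het 84 was that fish 6 times. It was the highest Het fish in *tomm6* (21.7 CPM, others 17.3 to 17.9) and in *si:dkey-88p24.11* (14.1 CPM, others 8.90 to 9.37). It was the lowest in *KIF3B* (53.5 CPM, others 82.5 to 83.6), *nfat5b* (17.2 CPM, others 22.2 to 22.6), *bnip3la* (40.6 CPM, others 53.6 to 55.8) and *ofd1* (11.0 CPM, others 14.4 to 14.7).

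Hom 78 was that fish 4 times, each time toward WT. It was the lowest Hom fish in *ndufc2* (23.4 CPM, others 27.7 to 28.5), *ndufs3* (24.7 CPM, others 30.1 to 30.7) and *snrpd3l* (21.4 CPM, others 25.5 to 26.2), and the highest in *SETD1B* (94.0 CPM, others 79.7 to 81.04). The other 4 cases were Hom 83 in *tomm6* (16.2 CPM, others 13.6 to 13.9), Hom 82 in *si:ch73-43g23.1* (4.54 CPM, others 3.81 to 3.89), WT 88 in *map3k14a* (34.9 CPM, others 43.9 to 45.6) and Het 89 in *smc1a* (221 CPM, others 181 to 182).

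Counts on Chr MT were not used for the members. Their share was at least 37.3% in each of the 8 mutant fish and at most 32.5% in the WT fish. Hom and Het had nearly the same mean share, 39.1% in both. The mean share of the other counts on genes under 500 bp was 6.22% in WT, 9.69% in Hom and 13.8% in Het.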

How the results depend on the processing

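The number of members, 96, stayed within 1.5 times that value under other pseudocounts, filters, lengths, differences of means and scalings, but which genes were members changed with the scaling, as described. Leaving out 1 fish relaxes the demand on the ranges, not that on the means, and gave 96 to 363 genes. Without Het 84, 94 of the 96 members still met the rule, and without WT 86, 95 did. With TMM scaling and without Het 84 the rule gave 166 genes (91 higher, 75 lower). The median position of Hom was 0.64 to 0.72 when 1 fish was left out and moved by less than the SD between the 4 Hom fish in each alternative. Genes called in Het against WT numbered 4781 and ranged from 3021 to 5431 with 1 fish left out, the lowest counts being 3021 without WT 86 and 3063 without WT 79. In Hom against WT they numbered 3186 and ranged from 1473 without WT 79 to 4087, with 1584 without WT 86, 1858 without Hom 83, 1918 without Hom 85 and 2077 without Hom 82. Members called in Hom against WT ranged from 44 to 86. Hom against Het gave 0 genes in edgeR and in each of the 12 fits without a fish, 7 in DESeq2 and 8 in the likelihood-ratio test. Of the 45 members named by rule, the Het minus WT difference kept its sign under each scaling, pseudocount and the length correction, which follows from the choice of members. It moved by over 1 SD in 17 with Chr MT in the total and in 3 (*h3f3a*, *SETD1B* and *fmn2a*) with the length correction. No paired analysis was possible because the fish numbers are not shared between genotypes. The depth limits *zgc:195282*, whose lowest level was near 3 counts.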
